A study of Mus musculus with 4 samples.

Results

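The cell cycle genes described here are 39 genes that are transcribed when cells replicate their DNA or divide, of 24421 genes listed in each of 4 RNA-seq libraries. They were chosen by symbol, and all 39 symbols were found: 19 genes of S phase, when DNA is copied, and 20 genes of G2 and mitosis, when the copies are separated. Each library came from 1 mouse, 2 of them wild type (Usp25+/+, animals 139 and 140) and 2 knockout (Usp25-/-, animals 826 and 850) for the deubiquitinating enzyme Usp25. Per the labels, all 4 were female C57BL/6 mice, 8 weeks old. Their drinking water held 2.5% DSS (dextran sulfate sodium), which injures the colon epithelium, for 5 days and none of it for the next 2 days, and the tissue was distal colon. Neither the design of the Usp25 deletion nor its origin is stated in the sources used here, and untreated animals were not analysed here. The comparison therefore asks how the genotypes differ after the labelled treatment.

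Entry into S phase depends on E2F transcription factors, which the retinoblastoma family of proteins holds in check until G1 cyclins and their kinases inactivate it. E2F targets then supply the helicase, the clamp and the nucleotides for replication. The genes of mitosis follow later, driven by B-MYB and FOXM1 with the MuvB complex, which binds a promoter element called the cell cycle genes homology region (CHR), while NF-Y binds the CCAAT box found in many of the same promoters. In a whole tissue these transcripts mark dividing cells, since most differentiated cells hold little of them.

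The libraries did not match all of their labels. Of 18 listed genes of colon epithelium, 10 stayed under 1 FPKM (fragments per length of transcript, scaled to library size) in every library, among them the goblet cell genes Muc2, at no more than 0.193 FPKM, and Zg16, listed at 0 throughout. Others were present: Car4, which is also on the list of alveolar macrophage genes, was at 193 to 399 FPKM and Agr2 at 18.6 to 24.4 FPKM. Krt20, Guca2a and Phgr1 were higher in both knockouts without overlap, and highest in 826 at 52.4, 16.6 and 34.4 FPKM. By contrast, 16 genes of lung epithelium had library medians of 48.1 to 85.5 FPKM. Despite the female label, the Y-linked Ddx3y ranged from 12.7 to 30.3 FPKM and Xist did not exceed 0.11 FPKM. Usp25 itself followed the genotype, at 38.5 FPKM in 139 and 16.6 in 140, against 2.65 in 826 and 1.71 in 850 (log2 fold change -3.07, SE 0.47; limma unadjusted p = 0.00107, adjusted p = 0.960). Animal 139 stood apart: it had 20556 genes above 0 against 15603 to 17242 in the others, and its 11 listed genes of mature neutrophils had a mean of 9.69 on log2(FPKM + 1), against 4.50 to 5.63. The lung and Y-linked transcripts thus go against the labels of tissue and sex, and the values below are those of the libraries as labelled. Whether the replicate animals shared a litter or cage is not given. The tests rest on the spread between the 2 mice of each genotype, which limma draws toward a trend fitted over all genes tested.

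Promoters of the members differed by phase in the motifs they held. RefSeq promoters on GRCm38.p6, which run from 250 bases before the transcription start to 50 after it, were found for 31 of the 39 genes. The letters searched on both strands were TTTCCCGC, TTTCGCGC, TTTGCCGC and TTTGGCGC for E2F, TTTGAA and TTTAAA for the CHR, and CCAAT for NF-Y. An E2F motif was present in 6 of 15 S-phase promoters (40.0%) and in 1 of 16 mitotic ones (6.25%), against 2.32% of 27025 promoters in all. The CHR motif was present in 14 of 16 mitotic promoters (87.5%) and in 5 of 15 S-phase promoters (33.3%), against 27.8% of all. CCAAT was present in 14 of 16 and 10 of 15, against 37.9% of all. A CHR motif and CCAAT stood together in 13 of 16 mitotic promoters, or 81.2%, against 10.9% of all. With the 250 bases before the start alone, an E2F motif was present in 4 of 15 S-phase promoters, against 1.91% of all. The CHR motif was then present in 11 of 16 mitotic and 4 of 15 S-phase promoters, against 25.5% of all. These counts describe letters in a window and were not tested, and a match is not a bound site.

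The promoters printed here are those of the S-phase and the mitotic gene with the largest difference between the genotypes (Mcm6 and Ube2c), of Rrm2, the S-phase gene next to Mcm6 in size of difference, of Cdk1, whose promoter holds all 3 motifs, and of Mki67, which had the lowest log2 fold change of its group. Capitals mark every motif match, and matches that overlap run together. They are RefSeq sequences on GRCm38.p6, each read 5′ to 3′ along its gene: Mcm6 from chr1:128359656-128359955 (minus strand), Rrm2 from chr12:24708004-24708303 (plus), Ube2c from chr2:164769679-164769978 (plus), Cdk1 from chr10:69352863-69353162 (minus) and Mki67 from chr7:135716330-135716629 (minus).
Mcm6: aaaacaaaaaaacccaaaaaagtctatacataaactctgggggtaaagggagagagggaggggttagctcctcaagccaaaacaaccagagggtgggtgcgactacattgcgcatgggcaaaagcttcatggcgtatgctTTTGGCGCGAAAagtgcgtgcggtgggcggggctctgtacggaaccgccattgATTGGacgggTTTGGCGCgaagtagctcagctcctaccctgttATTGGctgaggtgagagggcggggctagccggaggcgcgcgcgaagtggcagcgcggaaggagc
Rrm2: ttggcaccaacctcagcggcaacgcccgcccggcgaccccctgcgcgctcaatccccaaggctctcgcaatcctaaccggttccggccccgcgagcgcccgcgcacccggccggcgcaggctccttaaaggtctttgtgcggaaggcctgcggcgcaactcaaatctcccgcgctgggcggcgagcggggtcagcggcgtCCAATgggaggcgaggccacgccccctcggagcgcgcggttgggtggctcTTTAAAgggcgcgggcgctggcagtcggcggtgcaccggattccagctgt
Ube2c: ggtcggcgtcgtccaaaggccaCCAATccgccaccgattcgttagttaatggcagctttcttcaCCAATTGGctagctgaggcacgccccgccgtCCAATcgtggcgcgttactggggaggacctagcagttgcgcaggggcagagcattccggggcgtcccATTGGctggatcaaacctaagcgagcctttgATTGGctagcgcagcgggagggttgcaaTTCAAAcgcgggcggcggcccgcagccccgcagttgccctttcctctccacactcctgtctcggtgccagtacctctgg
Cdk1: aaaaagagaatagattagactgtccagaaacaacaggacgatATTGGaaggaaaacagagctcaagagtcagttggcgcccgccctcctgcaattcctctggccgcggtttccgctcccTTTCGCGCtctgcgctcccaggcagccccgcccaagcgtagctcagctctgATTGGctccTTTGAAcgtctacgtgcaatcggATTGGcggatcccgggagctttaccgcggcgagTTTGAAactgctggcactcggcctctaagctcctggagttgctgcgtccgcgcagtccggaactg
Mki67: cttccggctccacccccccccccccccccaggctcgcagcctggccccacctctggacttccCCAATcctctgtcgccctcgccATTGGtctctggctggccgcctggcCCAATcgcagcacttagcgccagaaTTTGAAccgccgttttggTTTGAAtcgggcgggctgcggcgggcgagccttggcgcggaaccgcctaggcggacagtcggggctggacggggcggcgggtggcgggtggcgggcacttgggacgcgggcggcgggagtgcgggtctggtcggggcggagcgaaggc
Mcm6 held 3 E2F matches, whose first bases lie at -110, -106 and -47 from the start, with the pair at -110 and -106 overlapping on opposite strands. Rrm2 held no E2F match in this window, 1 CCAAT at -50 and 1 CHR match at the start. Ube2c held 6 CCAAT matches and 1 CHR match at -29. Cdk1 held 1 E2F match at -131, 2 CHR matches at -71 and -15 and 3 CCAAT matches. Mki67 held 2 CHR and 3 CCAAT matches, the motifs most common in the mitotic group.

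**Figure D1:**
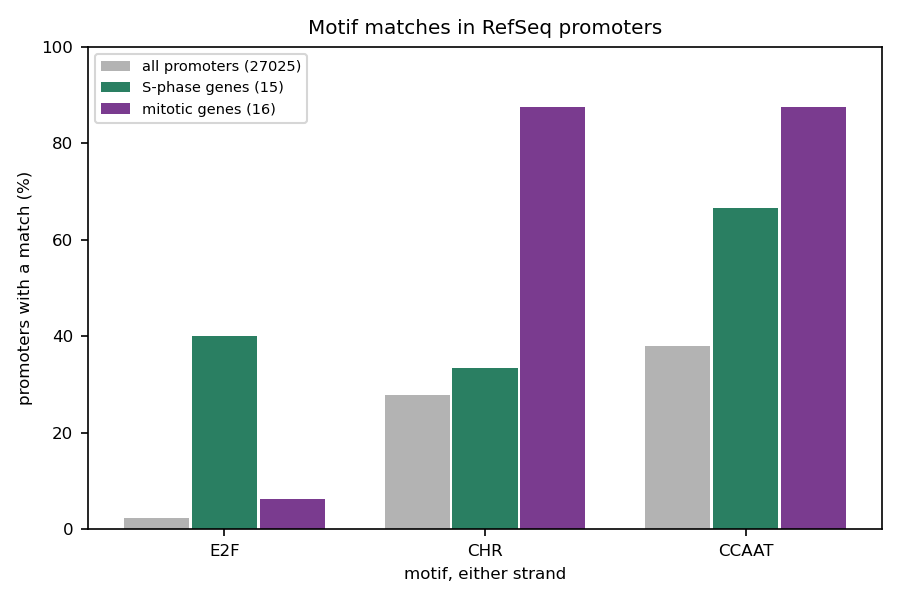
Percentage of RefSeq promoters (y axis) that hold an E2F, CHR or CCAAT match on either strand (x axis), for all 27025 promoters, 15 S-phase promoters and 16 mitotic promoters. E2F matches reach 40.0% in the S-phase genes, and CHR and CCAAT matches 87.5% in the mitotic genes.

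None of the 39 genes passed the test between the genotypes, though most stood higher in Usp25-/-. Values were compared as log2(FPKM + 1), a scale that understates changes of low genes, with limma over the 12011 genes whose mean was at least 1 FPKM. A log2 fold change is Usp25-/- minus Usp25+/+ on that scale. Over all genes 0 passed (0.00%) at a Benjamini-Hochberg adjusted p of 0.05, and 375 (3.12%) had an unadjusted p under 0.05. Of the members 36 were tested, all 19 of S phase and 17 of mitosis, and 2 had an unadjusted p under 0.05. With 2 mice against 2, the smallest two-sided p that exact permutation can reach for one gene is 0.333.

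The members shared a direction more often than genes in general did. Among the S-phase genes 18 of 19 had a log2 fold change above 0 and among the tested mitotic genes 15 of 17, where 53.5% of all genes tested did. Their median log2 fold changes were 0.34 in both groups, against 0.03 over all genes. Both knockout libraries lay above both wild-type libraries in 7 S-phase and 6 mitotic genes, or 36.8% and 35.3%, where 19.0% of all genes did so. The reverse held in 1 S-phase gene, Cdt1, and in 0 mitotic genes, where 14.7% of all genes did so. In either direction 8 of 19 and 6 of 17 genes were without overlap, against 33.8% of all genes. The members were chosen with earlier results of these data known, so the counts are descriptions. Exons of 10 members overlap a gene on the other strand, with which they can share reads here, and 3 of the 13 members higher without overlap are among them (Mcm7, Ube2c and Cdc20). In bulk RNA, more dividing cells and more of each transcript per dividing cell cannot be told apart.

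The difference between the genotypes was smaller without animal 139, which was the lowest library in 14 of 19 S-phase genes and in 10 of 17 mitotic genes, where it was the lowest in 39.4% of all genes tested. Animal 140 was the lowest in 4 and 5 (23.5% of all genes), 826 in 0 and 2 (24.3%) and 850 in 1 and 0 (12.8%). Animal 850 was the highest library in 12 S-phase and 5 mitotic genes (17.5% of all genes), 826 in 3 and 6 (25.4%), 140 in 3 and 4 (27.2%) and 139 in 1 and 2 (29.9%). The 4 libraries thus differed from one another within the genotypes too. Without 139, 13 of 19 S-phase genes (median 0.07) and 12 of 17 mitotic genes (median 0.27) stood higher in the knockouts, against 49.2% of all genes, and 8 and 9 lay above 140 in both knockouts, against 35.7%. Without 140, 17 and 14 stood higher (medians 0.55 and 0.56; 56.0% of all genes), and 17 and 12 lay above 139 in both knockouts (45.8%). Without 826, 18 and 16 stood higher (medians 0.46 and 0.34; 55.3%), and 850 lay above both wild-type libraries in 14 and 10 (30.3%). Without 850, 17 and 10 stood higher (medians 0.21 and 0.11; 50.5%), and 826 lay above both wild-type libraries in 8 and 7 (31.6%). The median of both groups stayed above 0 in all 4 cases, and it was lowest without 139 for S phase and without 850 for mitosis. Each of these fits leaves 1 library in a genotype, which is assumed to vary like the other.

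**Figure D2:**
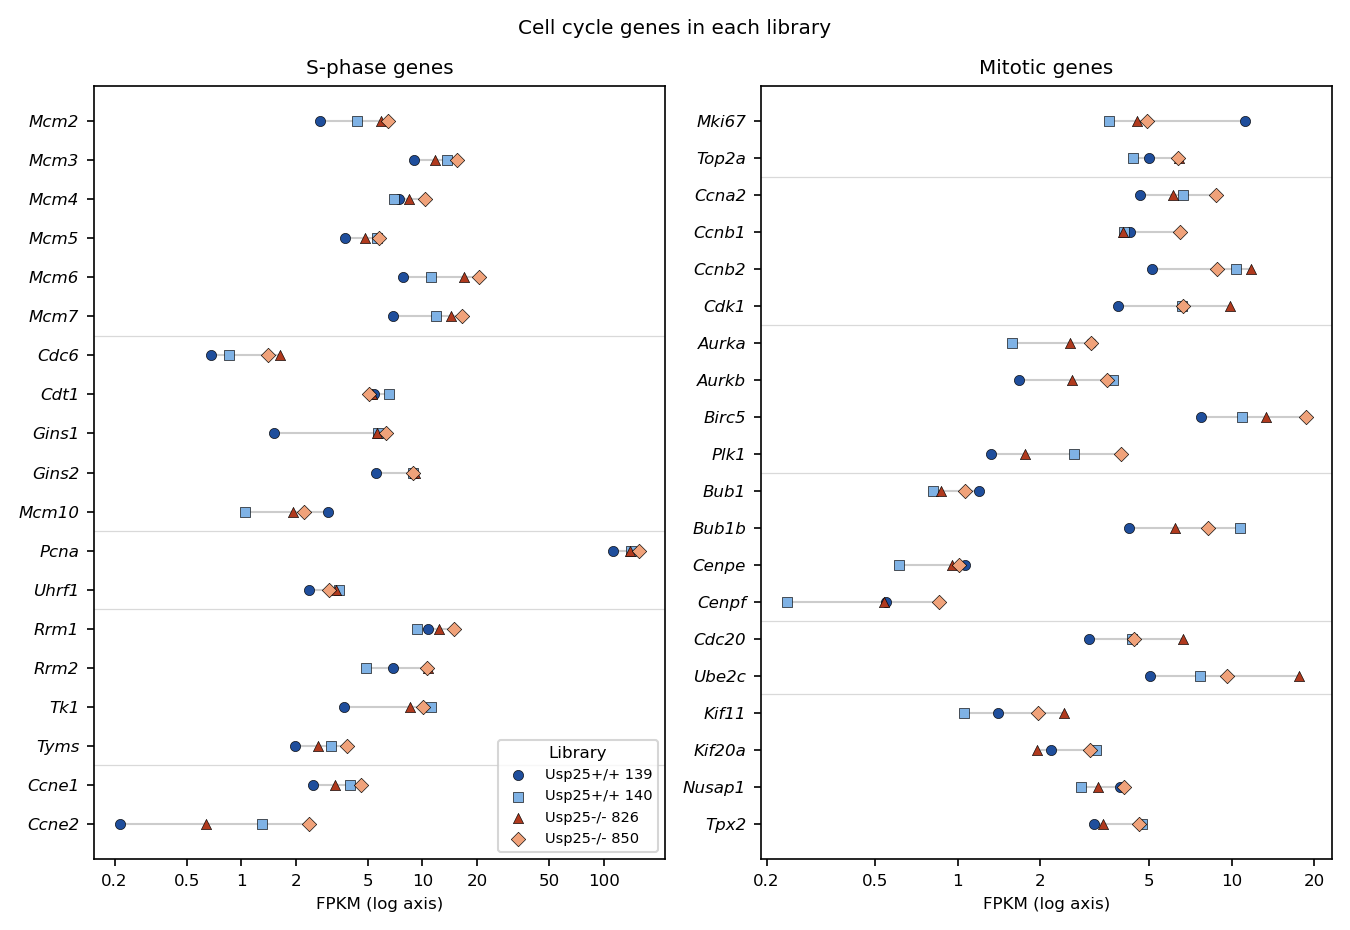
FPKM of each of the 39 genes (log x axis) in the 4 libraries, with genes grouped by role and grey lines spanning the libraries. Animal 139 (dark circles) is the lowest in most S-phase genes, while Mki67 is at 11.2 FPKM in 139 and at 3.57 to 4.89 FPKM in the other 3.

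The MCM helicase stood higher in Usp25-/- in all 6 subunits, which unwind DNA at the replication fork as one ring (Mcm2 to Mcm7). Over all genes 53.5% stood higher. The median log2 fold change of the subunits was 0.51. The genotypes did not overlap in 4 of them, where 19.0% of all genes were higher without overlap. Without 139, 4 of the 6 stood higher, where 49.2% of all genes did, and Mcm3 and Mcm5 had log2 fold changes of -0.01 and -0.07. In the values that follow, 139 and 140 come first and 826 and 850 second. Mcm6, on mm9 chromosome 1 from 130228168 to 130256233 (minus strand), was listed at 7.83 and 11.1 against 17.0 and 20.5 FPKM. Its means were 9.46 ± 2.31 and 18.7 ± 2.49 FPKM (SD, n = 2 each), so that the lower knockout lay above the higher wild-type mouse by more than the gap within either genotype. The log2 fold change was 0.93 (SE 0.31; limma unadjusted p = 0.0296, adjusted p = 0.960). Mcm7 was listed at 6.89 and 11.9 against 14.3 and 16.5 FPKM, a log2 fold change of 0.70 (SE 0.35). Mcm2 was listed at 2.71 and 4.38 against 5.91 and 6.43 FPKM, a log2 fold change of 0.68 (SE 0.32). In both genes 139 was the lowest library and 850 the highest, and without 139 their log2 fold changes were 0.34 and 0.41, and without 140 they were 1.05 and 0.95. Mcm4 stood at 7.41 and 6.94 against 8.46 and 10.3 FPKM. Mcm3 and Mcm5 overlapped, since 140 lay above 826 in both, at 13.7 against 11.8 FPKM and at 5.61 against 4.85 FPKM. Animal 850 was the highest library in all 6 subunits. Exons of Mcm7 overlap Ap4m1 and Cops6 on the other strand, so that in these libraries without strand information reads can be shared. Those partners had log2 fold changes of 0.38 and 0.08.

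Of 5 genes that load and start the helicase, 4 stood higher in Usp25-/- and 1, Cdt1, lower. Their median log2 fold change was 0.30, and 53.5% of all genes stood higher. Cdc6, which loads MCM rings onto origins, was listed at 0.678 and 0.856 against 1.64 and 1.41 FPKM, low values with a difference of 0.52 log2 units (SE 0.34; limma adjusted p = 0.960). Its partner Cdt1, which is destroyed once replication begins, was listed at 5.43 and 6.5 against 5.30 and 5.08 FPKM. It was the one member whose libraries did not overlap in the opposite direction, by a small gap that was lost when values were scaled without the 100 most abundant genes. Its log2 fold change was -0.17 (SE 0.28; limma adjusted p = 0.966), and -0.28 without 139 and -0.055 without 140. Gins1 and Gins2, members of the GINS complex, which completes the active helicase, were lowest in animal 139. Gins1 was listed at 1.51 FPKM in 139 and at 5.65, 5.64 and 6.32 FPKM in 140, 826 and 850, so that its log2 fold change of 0.77 (SE 0.52) became 0.07 without 139 and 1.48 without 140. Gins2 was at 5.55 FPKM in 139 and between 8.84 and 9.05 FPKM in the other 3. Mcm10, which helps to activate the helicase, was highest in 139 at 3.03 FPKM and lowest in 140 at 1.05 FPKM, with 826 and 850 between them.

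Of 4 genes for nucleotide supply, the 2 subunits of ribonucleotide reductase were higher in Usp25-/- without overlap, where 19.0% of all genes were. Rrm2, the subunit made in S phase, was listed at 6.88 and 4.89 against 10.7 and 10.6 FPKM. The means were 5.89 ± 1.41 and 10.7 ± 0.0454 FPKM (SD, n = 2 each), and the log2 fold change was 0.78 (SE 0.29; limma unadjusted p = 0.0449, adjusted p = 0.960). Here 140 was the lowest library, and the log2 fold change was 0.99 without 139 and 0.57 without 140. Rrm1, the large subunit, was listed at 10.7 and 9.39 against 12.3 and 15.0 FPKM, a log2 fold change of 0.40 (SE 0.28). The thymidylate genes overlapped. Tk1, which salvages thymidine, was at 3.69 FPKM in 139 and at 11.2, 8.54 and 10.1 FPKM in 140, 826 and 850. Tyms, which makes thymidylate anew, was at 1.99 and 3.14 against 2.66 and 3.84 FPKM, and the pseudogene listed as Tyms-ps did not exceed 0.398 FPKM.

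Pcna, the sliding clamp of DNA polymerases, which also acts in DNA repair, was by far the most abundant member. It was listed at 113 and 141 against 140.4 and 157 FPKM, while the means of the other 38 members ran from 0.542 to 14.1 FPKM. Its libraries overlapped, and its log2 fold change was 0.23 (SE 0.32; limma adjusted p = 0.960). It was 0.077 without 139, 0.15 without 850 and 0.39 without 140. Uhrf1, which carries DNA methylation through replication, was at 2.37 and 3.48 against 3.33 and 3.05 FPKM. Cyclin E starts S phase with its kinase CDK2, and both of its genes were lowest in 139 and highest in 850. Ccne1 was listed at 2.50 and 4 against 3.31 and 4.58 FPKM, and Ccne2 at 0.214 and 1.31 against 0.639 and 2.36 FPKM. Within each genotype the cyclin E genes thus differed between the 2 animals by at least as much as between the genotype means.

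The largest difference among the mitotic genes was in a partner of the anaphase-promoting complex, the ubiquitin ligase that ends mitosis. Ube2c, its ubiquitin-conjugating enzyme, on mm9 chromosome 2 from 164595398 to 164604322 (plus strand), was listed at 5.02 and 7.65 against 17.6 and 9.59 FPKM. The means of 6.33 ± 1.86 and 13.6 ± 5.64 FPKM (SD, n = 2 each) differed, but the knockouts also differed widely between themselves. The log2 fold change of Ube2c, 0.96 (SE 0.40), was the largest of the 36 tested members, with a limma unadjusted p of 0.0598 and an adjusted p of 0.960. Animal 826 was far above 850, and without 826 the log2 fold change was 0.55. Cdc20, the activator of the complex, was listed at 3.01 and 4.32 against 6.64 and 4.39 FPKM, so that 140 and 850 were nearly level, and its log2 fold change was 0.47 (SE 0.34). It was 0.27 without 139, 0.22 without 826 and 0.72 without 850. Exons of Ube2c overlap Tnnc2 on the other strand, which did not exceed 0.847 FPKM, and those of Cdc20 overlap the abundant Elovl1, at 49.6 to 97.7 FPKM.

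Cyclins and their kinase had positive log2 fold changes in 4 of 4 genes, where 53.5% of all genes did. Cdk1, the kinase that drives cells into mitosis, was listed at 3.83 and 6.58 against 9.84 and 6.65 FPKM, which is 0.59 on the log2 scale (SE 0.37; limma adjusted p of 0.960). The genotypes were separated only by the small gap between 140 and 850, and the log2 fold change was 0.26 without 139, 0.34 without 826 and 0.92 without 140. Ccnb2, a B-type cyclin, was at 5.10 FPKM in 139 and at 10.4, 11.8 and 8.86 FPKM in 140, 826 and 850, so that its log2 fold change of 0.43 (SE 0.40) became -0.03 without 139, 0.24 without 826 and 0.88 without 140. Ccnb1, the other B-type cyclin, was nearly level at 4.26, 4.05 and 4.01 FPKM in 139, 140 and 826 and stood at 6.49 FPKM in 850. Ccna2, which acts in both S phase and mitosis, was at 4.64 and 6.64 against 6.09 and 8.75 FPKM. The cyclins thus differed from one another in which animal was highest.

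Among the mitotic kinases and their partners Birc5 stood out. Birc5 encodes survivin, which anchors the kinase Aurora B at centromeres, and was listed at 7.72 and 10.9 against 13.3 and 18.7 FPKM. The means were 9.33 ± 2.27 and 16.0 ± 3.8 FPKM (SD, n = 2 each), or 0.72 on the log2 scale (SE 0.33; limma unadjusted p = 0.0808, adjusted p = 0.960) and 0.49 without 139. Aurkb itself overlapped, at 1.67 and 3.68 against 2.62 and 3.50 FPKM. Aurka, the Aurora kinase of spindle poles, was at 3.07 and 1.58 against 2.57 and 3.06 FPKM, so that 139 was level with 850. Plk1, a kinase of mitotic entry and spindle assembly, was at 1.32 and 2.66 against 1.76 and 3.94 FPKM, lowest in 139 and highest in 850.

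Genes of the kinetochore and its checkpoint overlapped between the genotypes, and 3 of the 4 were low. Bub1, Cenpe and Cenpf had means of 0.981, 0.908 and 0.542 FPKM, under the limit of 1 FPKM, and were not tested. Bub1, a checkpoint kinase, ranged from 0.810 to 1.19 FPKM and was highest in 139. Cenpe, a kinetochore motor, and Cenpf, a kinetochore protein, were lowest in 140, at 0.611 and 0.237 FPKM. Bub1b, the checkpoint protein BubR1, was at 4.23 and 10.7 against 6.22 and 8.21 FPKM, with both extremes in Usp25+/+ and a log2 fold change of 0.06 (SE 0.46).

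Of the spindle genes 1 of 4 was higher in Usp25-/- without overlap, near the 19.0% of all genes that were. Kif11, the motor that pushes spindle poles apart, was listed at 1.40 and 1.05 against 2.44 and 1.96 FPKM. The log2 fold change was 0.53 (SE 0.33; limma adjusted p of 0.960), and it was 0.64 without 139 and 0.41 without 140. Tpx2, which activates Aurora A on the spindle, was at 3.13 and 4.71 against 3.39 and 4.57 FPKM. Nusap1, which bundles spindle microtubules, was at 3.91 and 2.82 against 3.25 and 4.03 FPKM. Kif20a, a motor of the central spindle in cytokinesis, was at 2.18 and 3.20 against 1.94 and 3.04 FPKM, a log2 fold change of -0.09 (SE 0.35) that lay above 0 without 140 (0.11) or without 826 (0.14). In these last 3 genes the genotypes overlapped.

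The common proliferation markers Mki67 and Top2a parted company. Mki67, which encodes the Ki-67 protein that coats chromosomes in mitosis, was listed at 11.2 and 3.57 against 4.5 and 4.89 FPKM. Its means were 7.40 ± 5.43 and 4.70 ± 0.280 FPKM (SD, n = 2 each), and its log2 fold change of -0.39 (SE 0.52, and 0.960 as limma's adjusted p) was the lowest of all members. Without 139 it became 0.32, since 140 was the lowest of the 4, and without 140 it was -1.10. Top2a, which untangles DNA before chromosomes separate, was listed at 4.99 and 4.37 against 6.40 and 6.36 FPKM, a log2 fold change of 0.38 (SE 0.27) without overlap. Animal 139 was thus highest in Mki67 while it was lowest in 24 of the 36 tested members.

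**Figure D3:**
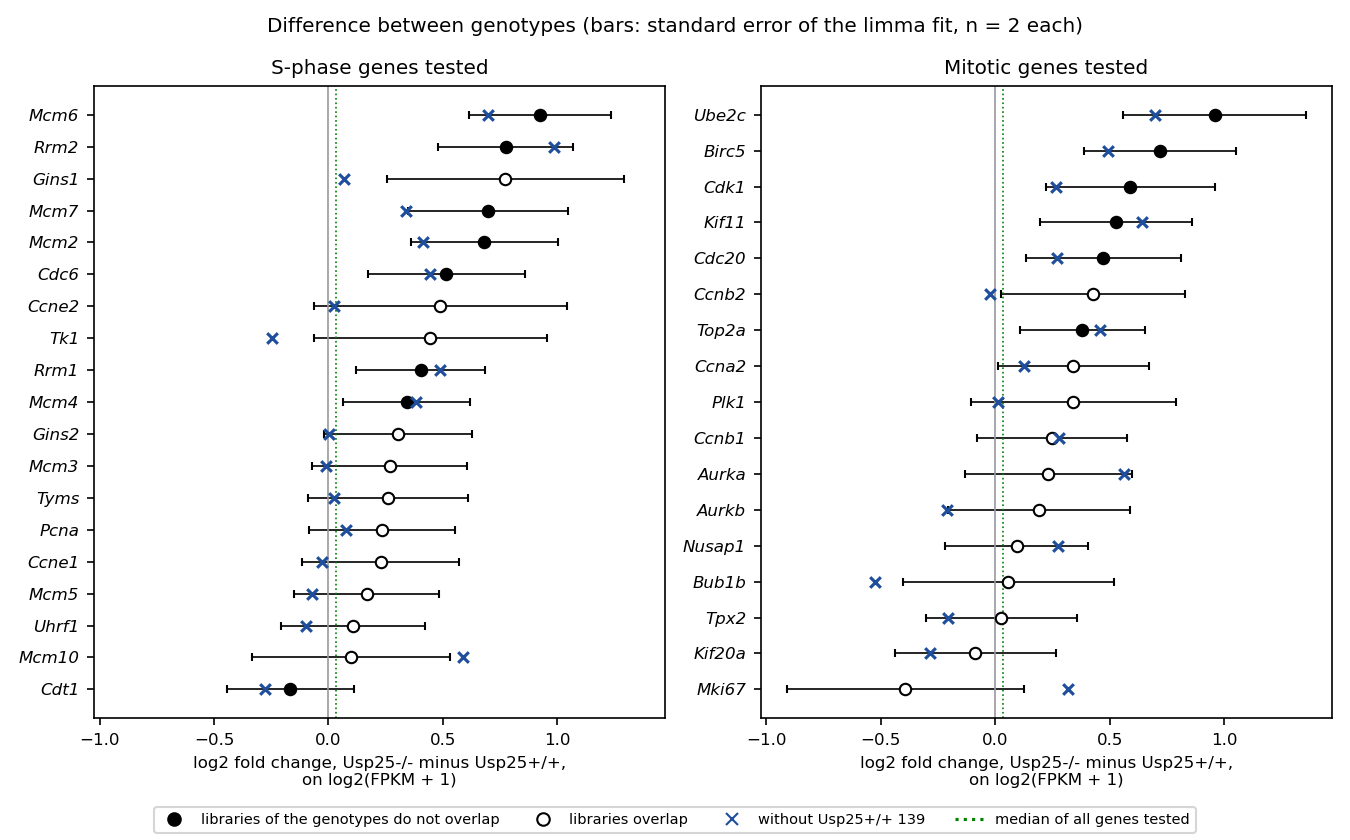
Log2 fold change of each tested gene (x axis, Usp25-/- minus Usp25+/+ on log2(FPKM + 1)) with its standard error from limma, n = 2 in each genotype. Filled circles mark genes whose libraries do not overlap, crosses give the value without animal 139, and the dotted line is the median of all genes tested, 0.03. Mki67 is at -0.39, and at 0.32 without 139, and Gins1 at 0.77, and at 0.07 without 139.

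The position of animal 139 varied with transcript length. Over all genes tested, the level in 139 minus the mean of the other 3 libraries was higher the longer the longest annotated transcript of a gene, from a median of -0.49 log2 units in the 1859 genes under 1500 bases to 0.29 in the 1138 genes of 6000 bases and over (Spearman rho = 0.35, Pearson r = 0.20 over 10950 genes). Over the 36 tested members rho was 0.37 and r was 0.53, values that share the same library 139 and are given as a description. By group rho was 0.28 in S-phase genes and 0.44 in mitotic genes. Mki67 has the longest transcript of the tested members, 10075 bases, and its difference was 1.21 log2 units. Other long members, not tested, were near level: Cenpf, with 11137 bases, at 0.02 and Cenpe, with 7813 bases, at 0.15. Gins1 has the shortest, 1087 bases, and its difference was -1.45. Between 850 and 826, the 2 Usp25-/- libraries, rho was 0.04 over the members. The genotype difference carried the same order in reverse over all genes, with a median of 0.24 in genes under 1500 bases, 0.13 from 1500 to 2500, 0.02 from 2500 to 4000, -0.08 from 4000 to 6000 and -0.16 above. For members in the 3 middle ranges, which hold 12, 16 and 6 genes, the medians were 0.30, 0.32 and 0.45. The end ranges hold 1 tested member each, Gins1 at 0.77 among the shortest and Mki67 at -0.39 among the longest. Between transcript length and the genotype difference, rho was -0.27 over all genes and -0.18 over the members. By group it was -0.03 in S-phase genes and -0.375 in mitotic genes. The part of transcript length in the values of single members was not tested.

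**Figure D4:**
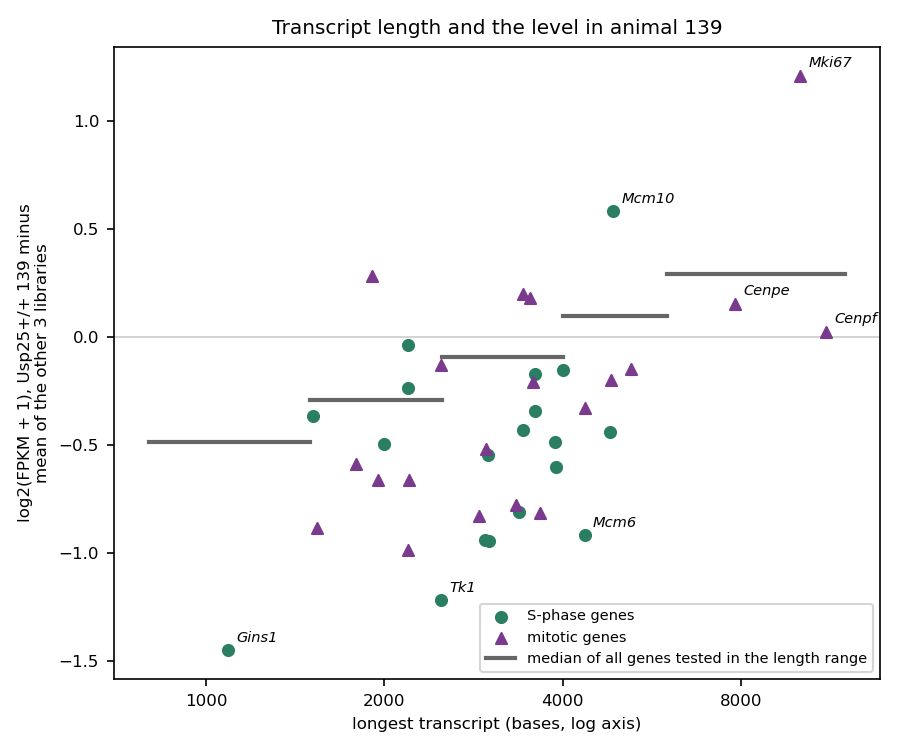
Level of each of the 39 genes in animal 139 minus the mean of the other 3 libraries (y axis, log2(FPKM + 1)) against its longest annotated transcript (log x axis), with bars for the median of all genes tested in each length range. The median of the tested members is -0.54, -0.53 and -0.26 in the 3 middle ranges, below the bars at -0.29, -0.09 and 0.10. Mki67 lies at 1.21 and Gins1 at -1.45, while the long genes Cenpf and Cenpe lie at 0.02 and 0.15.

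Levels averaged over the members followed one order of libraries. The mean log2(FPKM + 1) of the 19 S-phase genes was 2.48 and 2.88 in 139 and 140 and 2.97 and 3.18 in 826 and 850. That of the 20 mitotic genes was 2.04 and 2.19 against 2.33 and 2.45. In both groups the order was 139, 140, 826, 850, and the step between 140 and 826 was smaller than the step between the 2 Usp25+/+ animals. The balance between the groups, taken as mitotic minus S-phase mean over the 36 tested members, was -0.24 and -0.41 against -0.38 and -0.46 log2 units, so that the genotypes overlapped.

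Other genes of replication and mitosis, taken from lists of the pathway, also stood higher in the knockouts more often than lower. They were read in the same 4 libraries. Animal 139 was the lowest in 21 of 36 tested replication genes and 25 of 44 tested mitotic genes, against 39.4% of all genes. How these lists stood without 139 was not tested. Of 36 tested replication genes 24 stood higher and 12 lower in Usp25-/-, with a median log2 fold change of 0.18, and 16 were higher and 2 lower without overlap. Over all genes 53.5% stood higher, and 19.0% were higher and 14.7% lower without overlap. None passed limma (0 of 36), while 2 had an unadjusted p under 0.05. Rpa3, a subunit of the single-strand binding protein, was listed at 9.95 and 11.0 against 23.2 and 16.6 FPKM, a log2 fold change of 0.85 (SE 0.30). Dut, which keeps uracil out of DNA, was at 2.03 and 4.91 against 6.02 and 6.53 FPKM, and Tipin, a fork protection protein, at 4.88 and 5.49 against 9.48 and 9.65 FPKM. Of 44 tested mitotic genes 34 stood higher and 10 lower, with a median of 0.30, 16 higher and 2 lower without overlap, 0 past limma and 6 at an unadjusted p under 0.05, where 3.12% of all genes had one. Cdca5, which encodes the cohesion factor sororin, was listed at 0.572 and 1.04 against 2.66 and 3.41 FPKM, a log2 fold change of 1.17 (SE 0.35; limma unadjusted p = 0.0192, adjusted p = 0.960). Kif23, a motor of cytokinesis, was at 5.28 and 4.69 against 12.6 and 8.35 FPKM. Cdca3, a trigger of mitotic entry, was at 5.16 and 5.26 against 11.3 and 10.1 FPKM.

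Regulators upstream of these genes went both ways, and the G1 cyclins and kinases stood higher more often than genes in general. Over all genes tested 53.5% stood higher, 19.0% were higher without overlap and 14.7% lower without overlap. Of 16 tested E2F, retinoblastoma family and MuvB genes 11 stood higher and 5 lower, with a median log2 fold change of 0.07, and 2 were higher and 3 lower without overlap. Lin9, a MuvB subunit, was listed at 2.15 and 2.21 against 1.62 and 0.799 FPKM. Rbl2, the retinoblastoma family member p130, was at 10.8 and 11.1 against 7.49 and 8.73 FPKM, and Rbbp4, a histone-binding MuvB subunit, at 24.6 and 21.6 against 30.4 and 29.0 FPKM. The mitotic activators Mybl2 (B-MYB) and Foxm1 had means of 0.819 and 0.999 FPKM, under the limit of 1 FPKM, and were not tested. Of 8 tested G1 cyclins and kinases 6 stood higher, 4 of them without overlap, and 2 lower, 0 of them without overlap. Their median was 0.30, against 0.03 over all genes. Animal 139 was the lowest library in 5 of these 8 genes, where it was the lowest in 39.4% of all genes. Ccnd1, cyclin D1, was listed at 18 and 19.0 against 27.1 and 32.1 FPKM (log2 fold change 0.65, SE 0.28), Myc, a driver of growth and cell cycle entry, at 6.04 and 11.4 against 14.3 and 12.9 FPKM, and Ccnd2, cyclin D2, at 21.2 and 5.32 against 8.02 and 6.21 FPKM.

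Inhibitors of the cell cycle also went both ways, beside the same shares over all genes of 53.5% higher, 19.0% higher without overlap and 14.7% lower without overlap. Of 7 CDK inhibitors 3 stood higher and 4 lower, with a median log2 fold change of -0.03 and 1 lower without overlap. That was Cdkn2d (p19), at 24.7 and 13.9 against 13.5 and 11.1 FPKM, with a log2 fold change of -0.56 (SE 0.37). Cdkn2c was at 4.19 and 2.02 against 0.645 and 4.29 FPKM, and Cdkn2b at 4.10 and 6.62 against 9.18 and 5.75 FPKM. Of 13 tested p53 targets 7 stood higher and 6 lower, with a median of 0.07 and 1 lower without overlap, Sesn2, a stress-induced inhibitor of mTORC1, at 10.2 and 10.5 against 6.55 and 7.96 FPKM. Phlda3, an inhibitor of AKT, was at 12.1 and 48.4 against 26.3 and 46.4 FPKM, and Perp, a protein of cell junctions and apoptosis, at 26.9 and 51.5 against 60.1 and 40.7 FPKM, so that both overlapped. None of the genes in these 4 lists of regulators and inhibitors passed limma, and 0 had an unadjusted p under 0.05.

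Markers of cell types that can divide did not follow the order of the members as a whole. The mean log2(FPKM + 1) of 13 alveolar macrophage genes was 6.79, 7.34, 7.42 and 7.07 in 139, 140, 826 and 850, lowest in 139 as for the members but not highest in 850. That of 9 fibroblast genes was 2.67, 2.81, 2.72 and 3.54, of 9 T cell genes 1.57, 1.93, 1.36 and 2.17, and of 10 B cell genes 0.88, 0.81, 0.65 and 1.53, each highest in 850. Lung epithelial genes were also lowest in 139 and highest in 850, at 6.07, 6.67, 6.37 and 6.86. Endothelial genes were highest in 140, at 3.10, 4.05, 2.74 and 3.63. Of these 10 genes 9 stood lower in Usp25-/-, where 53.5% of all genes stood higher. Only 1 was lower without overlap, as were 14.7% of all genes. Airway basal cell genes were highest in 139, at 2.47 against 0.45, 1.12 and 0.80, as was the mean of 10 genes of intestinal crypt cells, at 1.95 against 1.35, 1.57 and 1.54. Within that list Olfm4 was at 34.8 FPKM in 139 and at no more than 0.692 in the others, and Cd44 at 215 against 99.3 to 121 FPKM. Sox9 and Slc12a2 were instead highest in 826, Lgr5 did not exceed 0.0484 FPKM, and Ascl2 and Msi1 were listed at 0 in every library. Genes of erythroid and of neutrophil precursors did not exceed means of 0.73 and 0.64, with 8 of 10 and 5 of 8 under 1 FPKM in every library. The part of these cell types in the values of the members was not tested.

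**Figure D5:**
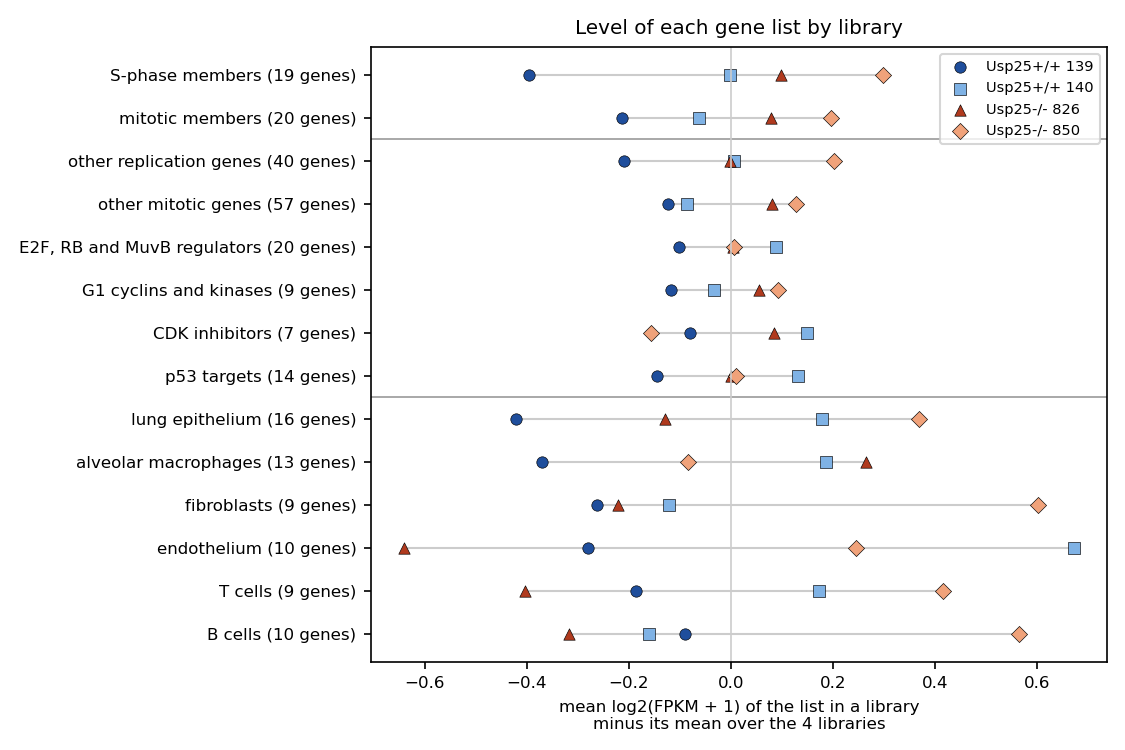
Mean log2(FPKM + 1) of each gene list in a library minus its mean over the 4 libraries (x axis), for the members, other cell cycle lists and cell type lists (y axis, number of genes in brackets). The S-phase and mitotic members run in the order 139, 140, 826, 850, as do the other mitotic genes and the G1 cyclins and kinases. None of the cell type lists shown follows that order.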

How the data were processed

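RNA was measured in 4 libraries, prepared from poly(A) RNA and read in pairs with no record of strand, per the labels' protocols. Cutadapt, TopHat2 2.1.1 and Cufflinks, with mm9 as the build, appear in the submitters' processing notes. The deposited values were taken as FPKM, since Cufflinks is named and library sums differ. No header states the unit, and neither annotation nor scaling is stated in the sources used here. Depth is unknown, so no counting interval is given. The members and gene lists were chosen with earlier results of these data known. Genotypes were compared on log2(FPKM + 1) with limma 3.58.1 in R 4.3.3 (eBayes with trend, two-sided) over the 12011 genes that averaged 1 FPKM or more, adjusted by Benjamini-Hochberg. The fit was tested on simulated data.

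Genes given in full were the 6 members of each group with the largest change and the 2 most abundant, Pcna, Mki67, Usp25, members against their group's median and the 3 largest changes of each pathway list. Other members were described by role. Coordinates and lengths came from GENCODE vM1 on NCBIM37 (mm9), and promoters, 1 for each gene, from RefSeq on GRCm38.p6. Alternatives were other pseudocounts, filters, scalings and variance models, the promoter window, and leaving out each library. Animals were labelled as separate.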

Additional observations from a re-analysis of the deposited data

How the results depend on the processing

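No paired analysis was possible because the labels give no pairing of animals between the genotypes. Limma called 0 genes under each of the 10 other settings and with each library left out, and at an unadjusted p under 0.05 the 375 genes became 107 without animal 826 and 2597 without 140. Under those 10 settings 35 of the 36 members kept their sign wherever they were tested. The exception was Tpx2, at -0.013 with median ratio scaling and -0.010 with quantile normalization. The rank of Mcm6 as the S-phase gene with the largest difference depended on the pseudocount. With a pseudocount of 0.1 its log2 fold change was 0.991, below Ccne2 at 1.02 and Gins1 at 0.999. With a mean of at least 5 FPKM required, 9 S-phase and 7 mitotic genes stood higher, because only 10 and 8 were tested. With 1 library left out, the median log2 fold change ran from 0.070 to 0.55 for S phase and 0.11 to 0.56 for mitosis. Genes without overlap in either direction then numbered 9 to 19 and 9 to 14, since 3 libraries overlap less often than 4. Over all genes the shares higher and lower without overlap were 35.7% and 36.9% without 139 and 45.8% and 35.0% without 140. The shares were 30.3% and 22.6% without 826 and 31.6% and 29.3% without 850, so the member counts are descriptions only. Of the 36 members 19 kept their sign in every setting. The other 17 had these log2 fold changes with a library left out: Mcm3 -0.012 to 0.55, Mcm5 -0.074 to 0.41, Mcm10 -0.39 to 0.59, Uhrf1 -0.097 to 0.31, Ccne1 -0.029 to 0.49, Ccne2 -0.030 to 1.01, Tk1 -0.25 to 1.14, Mki67 -1.10 to 0.32, Ccnb1 -0.041 to 0.54, Ccnb2 -0.025 to 0.88, Aurka -0.097 to 0.56, Aurkb -0.21 to 0.59, Bub1b -0.53 to 0.64, Plk1 -0.078 to 0.76, Kif20a -0.32 to 0.14, Nusap1 -0.086 to 0.28 and Tpx2 -0.21 to 0.26. Depth is unknown, so how well members near 1 FPKM were measured cannot be stated.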
